A study of Mus musculus with 12 samples.

Results

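The cytosolic ribosomal protein genes, which encode the protein subunits of the ribosome outside mitochondria, were described in the ileum of mice given a high-fat diet, a sugar drink, both or neither. Members were taken by name: gene names that begin with Rpl or Rps and a digit, together with Rplp0, Rplp1, Rplp2 and Rpsa, without names marked as pseudogenes, without the S6 kinases and without binding proteins. The rule found 91 of 44205 genes in the table, of which 37 had small-subunit (Rps) names, 51 had large-subunit (Rpl) names and 3 belonged to the acidic stalk of the large subunit. Rpsa, a small-subunit protein, was counted among the 37. Of the 91 members, 83 were spliced protein-coding genes and 8 were single-exon genes or processed copies (retrotransposed, usually without introns). They lay on 19 chromosomes.

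The 4 groups held 3 C57BL/6 mice each, all aged 16 weeks after 10 weeks of diet that began at 6 weeks of age. HF_Sugar mice, the Western diet (WD) group of the study, ate a diet with 60% of kcal from fat and drank a 23% (w/v) sugar solution. HF mice ate the same diet with plain water, NF_Sugar mice ate normal fat diet with the sugar drink, and NF mice, the normal diet (ND) group, had normal fat diet and plain water. Whole ileum was sequenced, so fewer cells of a type and less RNA per cell cannot be told apart. Each value is RPKM, reads scaled to the length of the gene and to library depth.

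Ribosomal protein mRNAs are among the most abundant in any cell, and a ribosome needs its small and large subunit proteins in equal amounts. Their transcripts are short and begin with a run of pyrimidines (C or T in DNA), the terminal oligopyrimidine tract. Through this tract, the kinase mTOR and the RNA-binding protein Larp1 tie their translation to nutrient supply. The mammalian genome also carries many processed copies of these genes, some of which are transcribed.

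The start of the transcript, where the tract lies, was read from the RefSeq promoter table (build GRCm38.p6), in which 66 of the 91 members had an entry. The windows below show 10 bases before and 15 bases from the annotated start, on the coding strand, for Rps6, the 40S protein that S6 kinases phosphorylate, and for members described with the results. Capitals mark the longest run of C or T where it reached 8 bases.
Rps6, chr4:86857353-86857377, minus strand: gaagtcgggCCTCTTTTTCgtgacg
Rps26, chr10:128626492-128626516, minus strand: gcaagccgccggaTCCTCTTTCgag
Rps27, chr3:90213634-90213658, minus strand: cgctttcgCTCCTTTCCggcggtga
Rpl38, chr11:114668570-114668594, plus strand: aagcctcgTTCTTTCCCCgttctct
Rplp2, chr7:141447641-141447665, plus strand: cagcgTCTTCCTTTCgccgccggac
Such a run was found in 23 of the 66 members (34.8%) and in 11.05% of the 27025 genes in the table. The search used the coding strand only, and an annotated start a few bases off the true one would miss the tract.

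Several members are near-identical in sequence to another member, and these pairs are shown because the division of reads between them bears on the levels. Rps27 (chr3:90212522-90213651, minus strand, 4 exons in its principal transcript) and the single-exon gene Rps27rt (chr9:114982366-114982739, minus strand, annotated as protein-coding) shared 252 of 252 coding bases. Rps27l, a spliced paralog on chromosome 9, shared 192 of 252. From the GENCODE M21 transcripts, the first 60 coding bases of Rps27rt and the most divergent stretch of Rps27 and Rps27l, coding bases 4 to 63 of Rps27, read as follows, with the bases that differ within a pair in capitals.
Rps27rt, bases 1 to 60, same as Rps27: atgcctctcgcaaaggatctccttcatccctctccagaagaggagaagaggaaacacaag
Rps27, bases 4 to 63, against Rps27l: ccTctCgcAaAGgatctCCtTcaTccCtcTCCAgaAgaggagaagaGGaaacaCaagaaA
Rps27l: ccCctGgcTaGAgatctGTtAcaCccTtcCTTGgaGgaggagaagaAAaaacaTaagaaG
Rpl6 (chr5:121204481-121209241, plus strand) and Rpl6l (chr10:111125851-111126721, plus strand, a processed pseudogene in the annotation) differed at 11 of 871 aligned bases, and the stretch with the most differences held 6.
Rpl6, coding bases 458 to 517: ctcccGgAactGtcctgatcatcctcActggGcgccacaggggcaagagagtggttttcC
Rpl6l: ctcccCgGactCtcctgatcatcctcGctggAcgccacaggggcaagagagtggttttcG
Rps12 and Rps12l1 were identical over 396 bases, Rpl37 and Rpl37rt differed at 1 of 291 bases, and Rps3a2 and Rps3a3 differed from Rps3a1 at 4 and 9 of 792 bases. The longest identical stretch of these pairs was 215 to 396 bases. How a read that fits both members of a pair was assigned is not given in the sources used here.

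Library depth, recovered from the steps between low RPKM values, was 15.2 M to 38.9 M reads, and a tested member drew at least 93 reads in every library. On the first principal component of the tested genes outside the set, 4 of the 12 libraries stood apart: HF_Sugar replicate 2, HF replicate 2, NF_Sugar replicate 1 and NF replicate 2, which is 1 library in each group. The genes used for this component included 737 tested sequence copies of the members, so the split was not drawn independently of them. The share of reads within genes was 73.1% to 73.7% in these 4 libraries and 76.9% to 81.2% in the other 8. The labels name no batch for them. Summed markers of ileal enterocytes (7 of 7 tested) were 5452 to 6411 RPKM in the 4 libraries and 4879 to 16970 RPKM in the other 8. Fabp6 and Fabp2 (means of 5009 and 2206 RPKM) made up most of this sum. Their mean log2 levels in the 4 libraries differed from those in the other 8 by -1.09 and -0.44. Only 3 of the 7 markers were lower in the 4 libraries, and the median difference was 0.02. Markers of pancreas (3 genes, of which 1 reached the testing level) summed to 1.38 to 4.28 RPKM in the 4 libraries and 1.95 to 4.55 RPKM in the other 8, near 0 beside the ileal markers.

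Levels differed widely among members. By mean RPKM over 12 libraries, the highest were Rps27rt (987), Rplp1 (973), Rpl8 (775) and Rpl41 (531). Rplp1 encodes an acidic protein of the stalk that recruits elongation factors, and Rpl41 encodes the smallest ribosomal protein. The lowest tested were Rps15a (3.31), Rpl36a (8.08), Rpl31 (10.3) and Rpl21 (10.3). The 88 members tested (at least 0.5 RPKM in at least 3 libraries) had a median of 43.5 RPKM, against 3.33 RPKM for all tested genes. RPKM divides by the summed exon length of all annotated transcripts, which was 6270 bases for Rps15a and 374 bases for Rps27rt, and across the 88 members level and exon length had a Spearman correlation of -0.45, a description with no test. Rpl10l, Rpl3l and Rpl39l did not reach the testing level, at means of 0.019, 0.026 and 0.053 RPKM. These 3 are paralogs known from testis or striated muscle.

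The members moved together from library to library. Of the variance of the 88 members, 84.5% lay on a single principal component, and the median correlation of 3828 pairs of members was 0.78 over the 12 libraries (range -0.83 to 0.99), with 89.7% of pairs above 0. These correlations share libraries and depth and are descriptions. Over the 8 libraries without the 4 that stood apart, the median correlation was 0.46. Of the 88 members, 83 were lower on average in the 4 libraries than in the other 8, with a median gap of -0.81 on the log2(RPKM + 1) scale, against 0.01 for all 17662 tested genes. In 54 of the 88 members, all 4 libraries lay below all other 8, which held for 7.32% of all genes. The members together took 1.54% to 1.78% of the summed RPKM in the 4 libraries and 2.01% to 2.63% in the other 8.

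**Figure D1:**
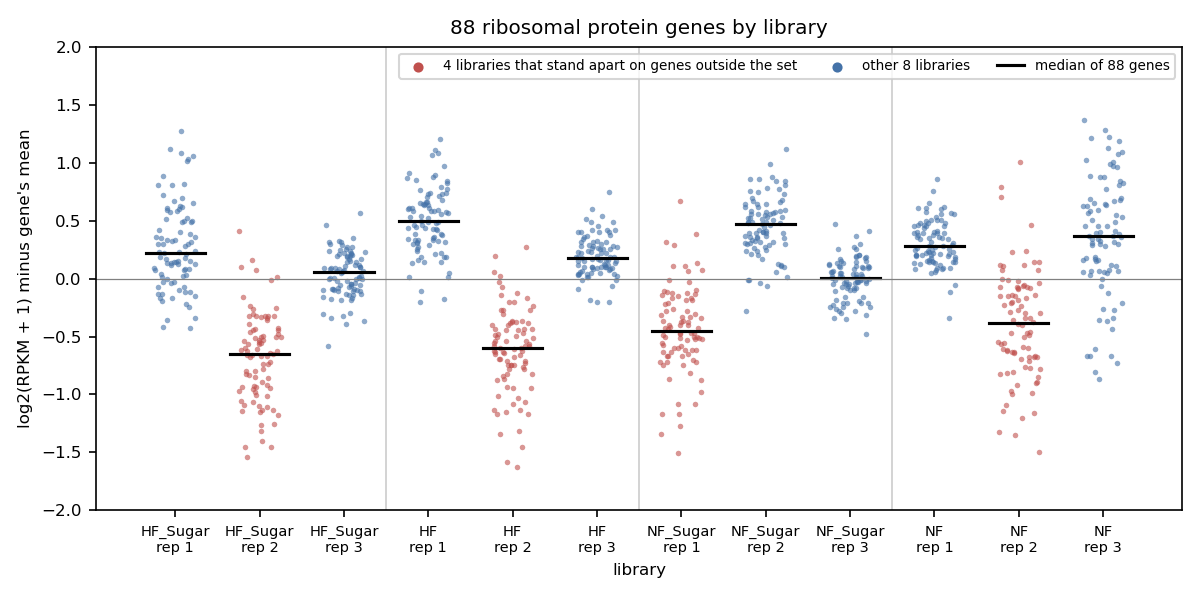
Log2(RPKM + 1) of each of 88 ribosomal protein genes minus its own mean over 12 libraries, by library, with groups left to right HF_Sugar, HF, NF_Sugar and NF; black bars are medians. The medians of the 4 libraries that stand apart (red) lie between -0.65 and -0.38, and those of the other 8 (blue) between 0.01 and 0.49.

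The largest swings within groups belonged to Rps29, Rps26, Rpl37 and Rps21, with pooled SDs of 1.30, 1.27, 1.16 and 1.151 on the log2 scale. Rps29, a small zinc-binding protein of the 40S subunit, had 58.5, 9.01 and 32.7 RPKM in HF_Sugar ileum, 57.2, 8.14 and 38.6 RPKM in HF ileum, 9.77, 49.4 and 27.1 RPKM in NF_Sugar ileum and 35.4, 8.92 and 76.7 RPKM in NF ileum. In each group the library that stood apart was the lowest, and the groups overlapped. Rps26, which lies at the mRNA exit channel of the 40S subunit, had 171, 24.9 and 92.1 RPKM in HF_Sugar ileum and 103.5, 25.05 and 112 RPKM in NF ileum. Its mean difference between HF_Sugar and NF was 0.08 (SE 0.92) and its gap between the 4 libraries and the other 8 was -2.10. The diet difference of Rps26 was thus smaller than the spread between replicates, as for Rps29 (log2 difference -0.22, SE 0.93), Rpl37 (0.08, SE 0.84) and Rps21 (-0.26, SE 0.83).

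The members that were not lower in the 4 libraries were few. Rpl29 (gap 0.25) is spliced, while Rps4l, Rps3a3, Rpl6l and Rps3a2 (gaps 0.32, 0.34, 0.48 and 0.68) are single-exon genes annotated as processed copies. Rps3a2 had 250, 444 and 315 RPKM in HF_Sugar ileum, 295, 339 and 298 RPKM in HF ileum, 410, 319 and 278 RPKM in NF_Sugar ileum and 345, 612 and 241 RPKM in NF ileum. The highest value in each group was that of the library that stood apart. Its spliced parent Rps3a1 ran the other way, with a gap of -0.65. Of the 81 tested spliced members 80 were lower in the 4 libraries (median gap -0.85), and of the 7 tested single-exon or processed members 3 were (median gap 0.32). Of the 737 tested sequence copies outside the members, 624 (84.67%) were lower in the 4 libraries (median gap -0.71). Rps24 (-0.11), Rpl41 (-0.16) and Rpl7 (-0.17) had small gaps among the spliced members.

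**Figure D2:**
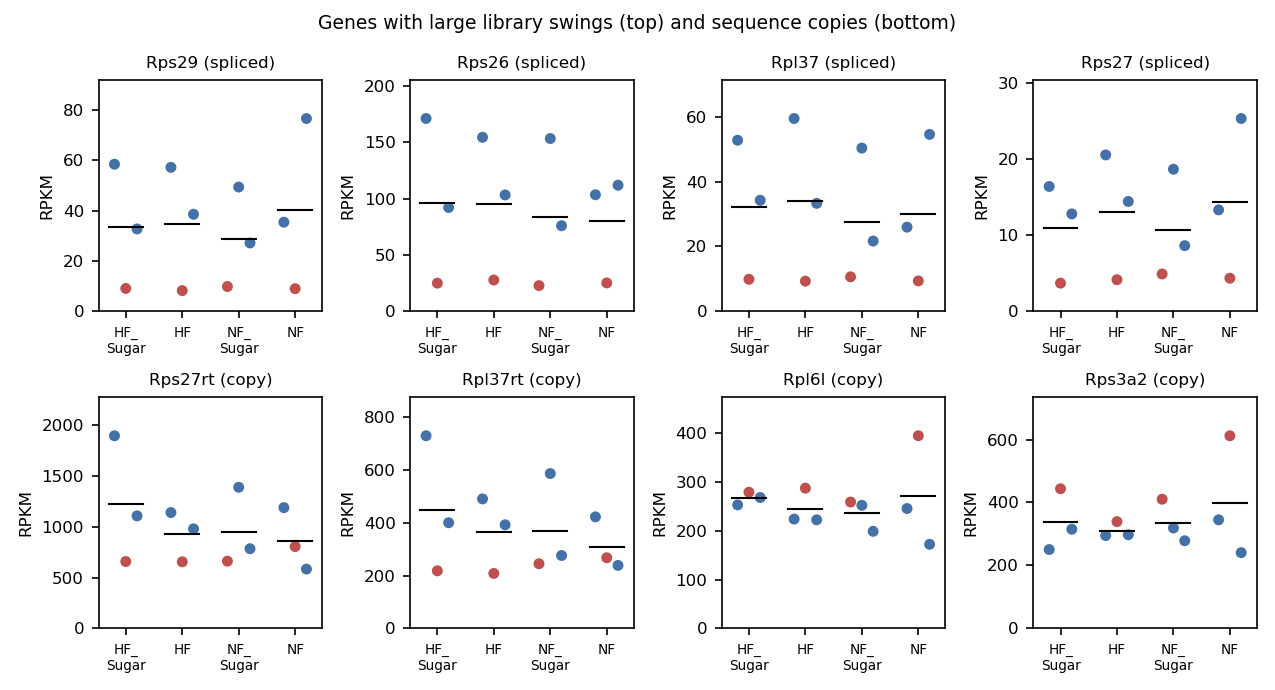
RPKM by group (HF_Sugar, HF, NF_Sugar, NF; 3 mice each, black bars are means) for 4 spliced members in the top row and 4 members that are sequence copies in the bottom row. Red points are the 4 libraries that stand apart and blue points the other 8. Red points are lowest in every group for Rps29, Rps26, Rpl37 and Rps27, and highest in every group for Rpl6l and Rps3a2. For the copy Rpl37rt the red point is lowest in HF_Sugar, HF and NF_Sugar. For the copy Rps27rt it is lowest in HF_Sugar, and in NF the red point of both is the middle value.

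Short transcripts outside the set were lower in the same 4 libraries. Among 3951 other protein-coding genes with a mean log2 level above 3, the median gap was -0.45 for transcripts of up to 500 nt (61 genes), -0.63 for transcripts above 500 and up to 600 nt (59 genes), -0.36 above 600 and up to 700 nt (71 genes), -0.11 above 1000 and up to 1500 nt (583 genes) and 0.10 above 4000 nt (637 genes). In the classes up to 500, 600, 700 and 1500 nt the members had median gaps of -0.93, -0.84, -0.79 and -0.85 (15, 12, 9 and 15 genes), each below that of the other genes. The Spearman correlation of transcript length and gap was 0.25 across the 88 members and 0.40 across the other genes. Nuclear genes of the respiratory chain had a median gap of -0.41 (103 genes), mitochondrial ribosomal protein genes -0.18 (82 genes) and proteasome genes -0.19 (41 genes). The genes of the mitochondrial genome had a median gap of -0.99, with 35 of 37 lower in the 4 libraries. Their share of the summed RPKM overlapped, at 4.46% to 6.499% in the 4 libraries and 4.72% to 7.59% in the other 8. The part of transcript length in the members' gap was not tested. The median gap was -0.81 in 23 spliced members with a pyrimidine run and -0.89 in 38 without, a difference that was not tested.

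**Figure D3:**
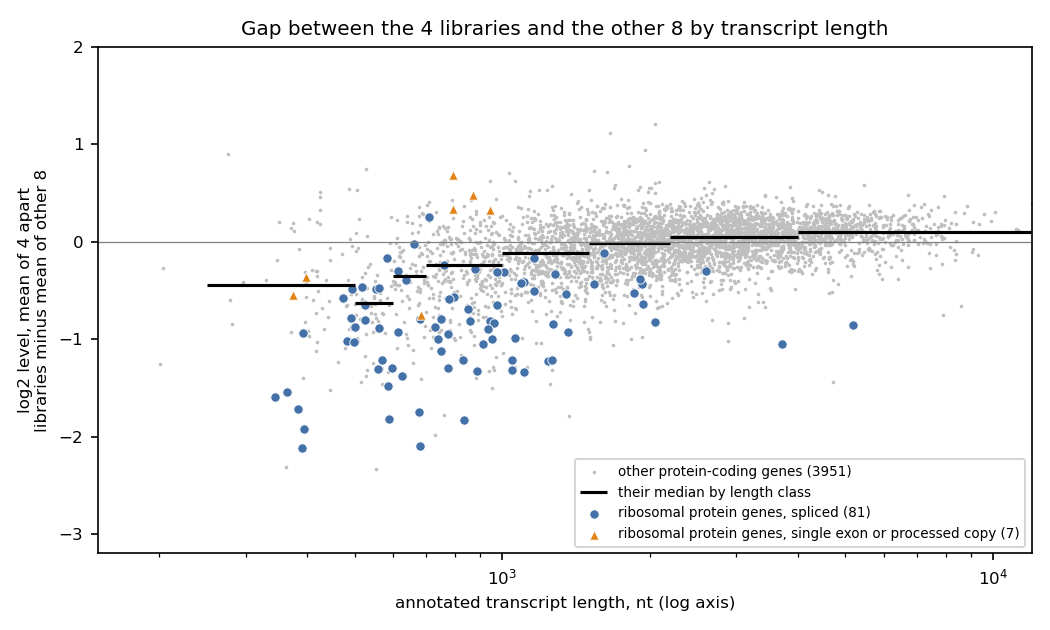
Mean log2 level of the 4 libraries that stand apart minus that of the other 8, against annotated transcript length (nt, log axis), for 81 spliced members (blue circles), 7 single-exon or processed members (orange triangles) and 3951 other protein-coding genes (grey points, with black bars for the median of each length class). The black bars lie at -0.45 up to 500 nt, -0.63 at 500 to 600 nt and 0.10 above 4000 nt.

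More reads were assigned to copies of the ribosomal protein genes than to the genes themselves. Aligning the coding sequences of the 83 spliced members to all annotated mouse transcripts found 841 genes of the table that were at least 90% identical over at least 50% of a coding sequence and were single-exon or pseudogenes. These 841 copies, 6 of them members, belonged to 78 parents, with a median of 7 and at most 64 (Rpl21) per parent. Multiplying RPKM by exon length in kilobases gives RPM, the depth-scaled reads of a gene without division by its length. The copies drew 21899 to 30003 RPM in a library and the 83 spliced members 7239 to 15696 RPM. The copies exceeded their parent on average in 66 families. The copies held 73.6% to 78.0% of family reads in the 4 libraries that stood apart and 61.6% to 69.7% in the other 8. In 54 of 78 families the copies' share was higher in all 4 of those libraries than in any of the other 8, and in 0 families was it lower in all 4. The mean total of parent and copies was also lower in the 4 libraries in 61 of 78 families. The part of the division of reads in the members' gap was not tested.

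**Figure D4:**
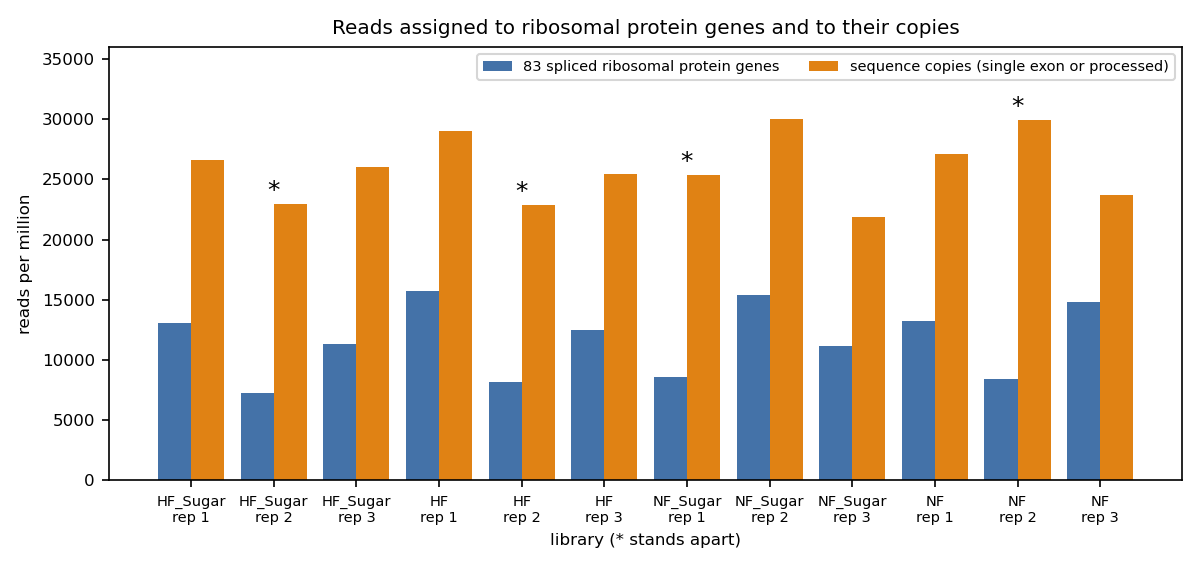
RPM (reads scaled to library depth) assigned to the 83 spliced ribosomal protein genes (blue) and to their 841 sequence copies (orange) in each library, with groups in the order HF_Sugar, HF, NF_Sugar and NF and an asterisk over the 4 libraries that stand apart. The blue bars are 7239 to 8580 in those 4 and 11122 to 15696 in the other 8, and the orange bars overlap.

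In the Rps27 family, 9 copies drew 98.0% to 98.5% of the reads in the 4 libraries that stood apart and 89.6% to 97.7% in the other 8. The mean family total was lower in the 4 libraries, at 265.5 RPM against 446.8 RPM in the other 8. The spliced gene had 16.4, 3.68 and 12.8 RPKM in HF_Sugar ileum and 13.3, 4.32 and 25.3 RPKM in NF ileum. Its copy Rps27rt, whose coding sequence is the same, had 1896, 658 and 1107 RPKM in HF_Sugar ileum and 1188, 805 and 583 RPKM in NF ileum. NF replicate 3 was the highest of the 12 libraries for Rps27 and the lowest for Rps27rt. Because the sequences are shared, the levels of Rps27 and Rps27rt are uncertain, and the same holds for every member with copies. For Rps26, 2 copies drew 61.97% to 78.24% of the family's reads in the 8 libraries, and 9 copies of Rps29 drew 65.4% to 77.0%.

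The comparison of WD with ND asks what fat and sugar together do to the ileum. No ribosomal protein gene passed in HF_Sugar against NF. Of the 88 members, 71 were lower and 17 higher in HF_Sugar, with a median log2 difference of -0.24, against -0.01 over all genes tested. None of the 88 had an unadjusted p under 0.05, and the lowest Benjamini-Hochberg adjusted p (limma) was 0.96. Across all 17662 genes 0 passed (0%) and 792 had an unadjusted p under 0.05, of which 394 were higher. The SD of the mean member level between libraries of a group was 0.49 on the log2 scale, larger than the median difference. In 2 members, Rpl39 and Rps27a, all HF_Sugar values lay below all NF values and in 0 members above. The shares over all genes were 5.33% lower and 6.11% higher, and without scaling between libraries 0 members separated. Markers of other cell types were read in the same comparison. The 7 enterocyte markers were all lower (median -0.36, sums of 5666 to 12860 RPKM in HF_Sugar ileum and 6411 to 14940 RPKM in NF ileum), and the 6 B and plasma cell markers were all higher (median 0.50, sums of 143.6 to 279.2 RPKM in HF_Sugar ileum and 105.3 to 192.9 RPKM in NF ileum). The 4 smooth muscle markers were all lower (median -0.34), and the 5 crypt and cycling cell markers (median 0.20) and 3 Paneth cell markers (median 0.20) all higher. Of the remaining lists, 3 of 5 T cell, 1 of 3 goblet cell and 2 of 3 fibroblast markers were higher. None of these markers passed (limma), 3 B and plasma cell markers and 1 T cell marker had an unadjusted p under 0.05, all higher, and their part in the members' differences was not tested.

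The 4 most negative differences belonged to Rps14 (-0.63, SE 0.60), Rpl36 (-0.62, SE 0.77), Rplp2 (-0.60, SE 0.39) and Rpl38 (-0.59, SE 0.68). Rps14 is a 40S protein best known for its deletion in a human bone marrow disorder. It had 89.5, 34.8 and 80.9 RPKM in HF_Sugar ileum and 104, 39.0 and 207 RPKM in NF ileum, so the groups overlapped. Rplp2, the partner of Rplp1 in the stalk, had 49.1, 24.6 and 44.3 RPKM in HF_Sugar ileum and 57.3, 38.05 and 77.2 RPKM in NF ileum, and again the groups overlapped. Rpl38, which in the mouse is known for patterning the axial skeleton, had 27.0, 9.09 and 21.9 RPKM in HF_Sugar ileum and 25.8, 11.8 and 56.0 RPKM in NF ileum. In both groups replicate 2 was the lowest.

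The 4 most positive differences belonged to Rps27rt (0.37, SE 0.45), Rpl37rt (0.35, SE 0.50), Rpl13 (0.26, SE 0.43) and Rpl35a (0.20, SE 0.40). Rpl37rt had 730, 218 and 401 RPKM in HF_Sugar ileum and 423, 268 and 239 RPKM in NF ileum, and it turned negative (-0.10) without HF_Sugar replicate 1. Rpl35a did so as well (-0.14), as did Rps27rt (-0.03) and Rpl13 (-0.08), and Rpl13 was also negative (-0.04) without NF replicate 3. Among the stalk proteins and Rpsa, which also serves as a laminin receptor, Rplp0 averaged 306 ± 102.5 RPKM in HF_Sugar ileum and 403 ± 174 RPKM in NF ileum (SD, n = 3 each). Rplp1 averaged 721 ± 292 and 957 ± 513 RPKM in the same groups, and Rpsa 99.9 ± 43.0 and 91.5 ± 15.9 RPKM. These differences were smaller than the SDs. Rps27a, which encodes ubiquitin fused to a 40S protein, had 11.01, 11.8 and 14.8 RPKM in HF_Sugar ileum and 16.7, 12.9 and 22.4 RPKM in NF ileum (log2 difference -0.47, SE 0.23, limma adjusted p = 0.96). Rpl39, a small protein of the 60S exit tunnel, had 39.5, 29.6 and 41.9 RPKM in HF_Sugar ileum and 38.4, 37.6 and 54.3 RPKM in NF ileum, and both genes' groups separated only after scaling between libraries.

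**Figure D5:**
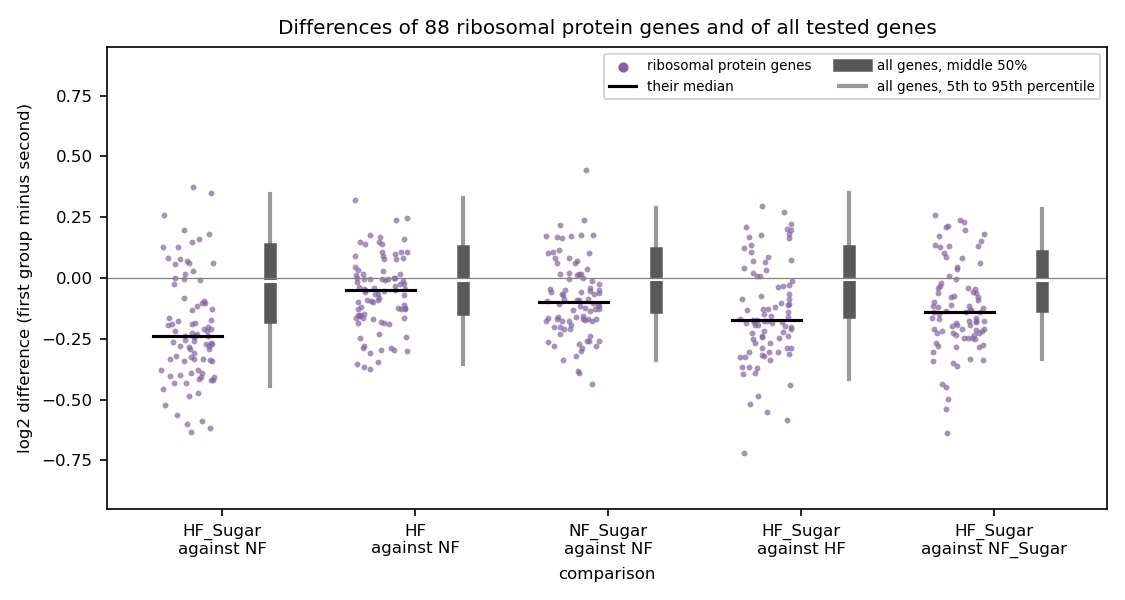
Log2 differences (first group minus second) of 88 ribosomal protein genes (purple points, black bars for medians) in 5 comparisons, beside the middle 50% and the 5th to 95th percentiles of all tested genes (grey). The medians of the members are -0.24, -0.05, -0.10, -0.17 and -0.14 from left to right, and 0 members passed the test.

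The median depended on single libraries. Without HF_Sugar replicate 2 the median difference between HF_Sugar and NF was 0.03, with 45 of 88 members higher, and without NF replicate 2 it was -0.51. It was -0.43 without HF_Sugar replicate 1, -0.34 without HF_Sugar replicate 3, -0.16 without NF replicate 1 and -0.09 without NF replicate 3. In the 8 libraries without the 4 that stood apart, 2 in each group, the median was -0.21 and 66 of 88 members were lower. All HF_Sugar values then lay below all NF values in 36 members (40.9%), against 21.2% of all genes, and above in 4 members (4.55%), against 20.01%. In that fit 5 members had an unadjusted p under 0.05, all lower, and 0 passed (lowest limma adjusted p = 0.46). Over all 17662 genes, the same fit gave 861 lower and 852 higher at that unadjusted p. With the 4 libraries kept and set as a covariate, 15 members had an unadjusted p under 0.05, all lower in HF_Sugar, and 0 passed (lowest limma adjusted p = 0.72). Over all 17662 genes, the covariate fit gave 709 lower and 506 higher at that unadjusted p. The covariate was itself drawn from these data, and the members moved together, so the 15 are not separate results.

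High fat with plain water and the sugar drink alone were each set against the same NF mice, so these comparisons share the NF libraries. In each of the comparisons that follow, and in the interaction, 0 of the 88 members had an unadjusted p under 0.05 (limma). Of all 17662 genes, 310 were lower and 352 higher at that p in HF against NF, and 186 and 143 in NF_Sugar against NF. In HF_Sugar, 434 were lower and 343 higher against HF, and 135 and 168 against NF_Sugar. The interaction had 216 negative and 233 positive genes. With the 4 libraries as a covariate, 12 members in HF_Sugar against HF and 4 in HF_Sugar against NF_Sugar had one, all lower in HF_Sugar. In the interaction 3 members did (1 positive, 2 negative), in HF or NF_Sugar against NF 0 did, and 0 passed. Over all 17662 genes, that fit gave 698 lower and 409 higher in HF_Sugar against HF, and 274 and 233 in HF_Sugar against NF_Sugar. It gave 342 negative and 323 positive genes in the interaction. For HF and NF_Sugar against NF, 429 and 326 genes were lower and 460 and 225 higher. In HF against NF, 63 members were lower and 25 higher (median -0.05), and 0 passed, as over all genes (0%). No member's groups separated in that comparison, against 4.27% lower and 4.68% higher over all genes. The largest differences belonged to Rplp2 (-0.38, SE 0.39) and Rps20 (-0.37, SE 0.50) on the negative side, and to Rplp1 (0.32, SE 0.46) and Rpl7a (0.25, SE 0.50) on the positive side. The median was 0.25 without HF replicate 2 and -0.34 without NF replicate 2, and 0.01 and 0.10 without NF replicates 1 and 3. It was -0.26 and -0.14 without HF replicates 1 and 3, and -0.02 without the 4 libraries that stood apart.

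In NF_Sugar against NF, 63 members were lower and 25 higher (median -0.10), with 0 passed and 0% over all genes. Rpl39 alone separated, lower in NF_Sugar, against 3.18% lower and 3.40% higher over all genes. Rps21 (-0.44, SE 0.83), Rps20 (-0.39, SE 0.50), Rps13 (0.45, SE 0.80) and Rplp1 (0.24, SE 0.46) had the largest differences. Rps13, a protein of the 40S subunit, had 10.5, 26.9 and 19.99 RPKM in NF_Sugar ileum and 23.6, 4.12 and 19.98 RPKM in NF ileum. NF replicate 2 was the lowest, and the difference was -0.23 without that library. The median over members was 0.14 without NF_Sugar replicate 1, -0.29 without NF_Sugar replicate 2, -0.02 without NF replicate 1, -0.35 without NF replicate 2 and 0.08 without NF replicate 3. It was -0.15 without the 4 libraries that stood apart.

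The sugar drink on top of high fat, and high fat on top of the sugar drink, were compared directly. In HF_Sugar against HF, 66 members were lower and 22 higher (median -0.17), and 0 passed, against 0.00566% of all genes (1 gene, and 0 genes with a replicate block). Rplp1 had the most negative difference (-0.72, SE 0.46), with 982, 405 and 776 RPKM in HF_Sugar ileum and 1636, 743 and 1116 RPKM in HF ileum. The groups overlapped, since the lowest HF value lay below the 2 highest HF_Sugar values. On the positive side, Rps27rt (0.29, SE 0.45) and Rpl22l1 (0.27, SE 0.25), the paralog of Rpl22, had the largest differences. Rps25, a 40S protein known for its part in internal ribosome entry, separated on the lower side and Rpl29 on the higher side, against 5.31% and 4.86% of all genes, and without scaling 0 members separated. The median was 0.09 without HF_Sugar replicate 2, 0.08 without HF replicate 1, -0.49 without HF replicate 2, -0.09 without HF replicate 3, -0.36 without HF_Sugar replicate 1 and -0.28 without HF_Sugar replicate 3. Without the 4 libraries that stood apart it was -0.21, and 34 members (38.6%) had all HF_Sugar values below all HF values, against 19.4% of all genes.

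In HF_Sugar against NF_Sugar, 68 members were lower and 20 higher (median -0.14), with 0 passed and 0% over all genes. Rplp1 (-0.64, SE 0.46) and Rpl41 (-0.54, SE 0.28) were the most negative, and Rps27rt (0.26, SE 0.45) and Rpl22l1 (0.24, SE 0.25) the most positive. Rpl41 had 509, 418 and 371 RPKM in HF_Sugar ileum and 484, 821 and 546 RPKM in NF_Sugar ileum. After scaling, 2 of the 88 members separated, both lower in HF_Sugar and Rpl41 among them, against 2.83% lower and 2.90% higher over all genes. Without scaling 0 members separated. The median was 0.12 without HF_Sugar replicate 2, 0.08 without NF_Sugar replicate 2, -0.36 without NF_Sugar replicate 1, -0.33 without HF_Sugar replicate 1, -0.22 without HF_Sugar replicate 3 and -0.13 without NF_Sugar replicate 3. Without the 4 libraries that stood apart it was -0.10, and 15 members (17.0%) lay lower, against 17.4% of all genes. The interaction, the effect of sugar on high fat minus its effect on normal fat, had a median of -0.06 over members (-0.41 without HF replicate 2 and 0.19 without HF_Sugar replicate 2) and passed in 0 members and in 0% of all genes.

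Of the divergent paralogs, Rpl22l1, Rpl7l1 and Rps4l lay below their parents. Rpl22l1 averaged 13.5 RPKM and Rpl22 53.9 RPKM, Rpl7l1 17.1 and Rpl7 54.2 RPKM, and Rps4l 35.01 and Rps4x 110 RPKM. Rpl36al (64.4 RPKM) was above Rpl36a (8.08 RPKM) and Rps27l (18.6 RPKM) above Rps27 (12.3 RPKM). The copies Rps12l1 (503), Rpl37rt (373) and Rpl6l (255) were above Rps12 (17.9), Rpl37 (30.9) and Rpl6 (43.9), all in mean RPKM over 12 libraries. In HF_Sugar against NF none of these passed.

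Other genes of ribosome production and translation were followed as lists. Of the ribosomal proteins outside the name rule, Fau had a log2 difference of -0.52 (SE 0.46) between HF_Sugar and NF and a gap of -1.02 between the 4 libraries and the other 8. Rack1 had a difference of -0.24 (SE 0.21) and a gap of -0.11, and neither passed. Of 19 elongation factors and other mRNAs with an oligopyrimidine start, 0 passed, 17 were lower and 2 higher (median -0.28), with 2 at an unadjusted p under 0.05 (limma), both lower. In the 4 libraries 14 of the 19 were lower (median gap -0.30), among them Naca (-1.04), Eif3e (-1.003), Eif3m (-0.90), Tpt1 (-0.82) and Eef1g (-0.73). Eef1a1, which delivers aminoacyl-tRNA to the ribosome, ran from 565 to 739 RPKM over the 12 libraries with a gap of 0.02. Eef2, the translocase, ran from 434 to 683 RPKM with a gap of -0.06. Of 24 initiation factors 0 passed and 20 were lower (median -0.18), and of 34 tested ribosome assembly and nucleolar factors 0 passed and 25 were lower (median -0.14). Of 15 genes of RNA polymerase I and its factors 0 passed and 10 were lower (median -0.05). Of 14 regulators, including Mtor (log2 difference 0.05, SE 0.09), Larp1 (-0.04, SE 0.13) and Myc (0.08, SE 0.32), 0 passed and 9 were lower (median -0.02). The 82 tested mitochondrial ribosomal protein genes had 0 passed and 60 lower (median -0.10). At an unadjusted p under 0.05 there were 2 initiation factors, 1 assembly factor, 1 polymerase I gene and 2 mitochondrial ribosomal protein genes, all lower in HF_Sugar, and 0 regulators. Over all 17662 tested genes, 9333 were lower in HF_Sugar than in NF. At that unadjusted p (limma), 398 of all genes were lower and 394 higher.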

How the data were processed

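RNA from the ileum of 12 mice was sequenced, 3 per group. By the study's methods, poly(A) RNA depleted of rRNA was made into libraries with the Ion Total RNA-Seq Kit v2, read on the Ion Proton, and aligned by the authors with STAR in Partek Flow to mm10 (GRCm38) with Ensembl release 91. The labels give 5 µg of RNA with an integrity number above 8, and the methods give another input. The deposited files hold RPKM made by the authors, with no counts. The 12 per-sample files were identical to their columns of the series table. In the table, 26 rows with bare numbers for names (at most 0.135% of a library's RPKM) were left out. Members, lists and the named genes were chosen with earlier results of these data known.

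Libraries were scaled by the trimmed mean of M values method, dropping 30% of ratios and 5% of means from both tails. A single model of log2(RPKM + 1) over the 4 groups was then fitted by limma 3.58.1 with its trend option, under R 4.3.3 (8 residual degrees of freedom). Genes at 0.5 RPKM in at least 3 libraries were tested, with Benjamini-Hochberg adjustment over all of them and a threshold of 0.05. The fit was tested on simulated data. Fold values understate the change of low genes because of the pseudocount of 1. Positions, lengths and copies came from GENCODE M21 (BLAST 2.17.0), in which all 91 members were matched. At the recovered depth, 86.9% to 88.6% of each library's low values came within 0.03 of a whole read. Named members were the stalk genes and Rpsa, paralogs, the 4 highest and 4 lowest, those with the largest differences (4 in each direction between HF_Sugar and NF and 2 between the remaining groups) and the 4 with the largest SD within groups. Members named for their gap, for small gaps or as pathway examples were chosen after their values were seen. A few genes that the rule names are not reported here.

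The labels do not say what a replicate number marks, and no pairing is claimed. Correlations of same-numbered deviations were 0.19, 0.51 and 0.21 in HF_Sugar against NF and 0.49, 0.56 and 0.13 in HF_Sugar against HF. They were 0.14, 0.56 and 0.07 in HF against NF, and -0.12, -0.42 and 0.26 in NF_Sugar against NF. In HF_Sugar against NF_Sugar they were -0.44, -0.43 and -0.04. The library that stood apart was replicate 2 in HF_Sugar, HF and NF and replicate 1 in NF_Sugar. Its part in these correlations was not tested. The labels give no litter or cage, so p-values measure the spread between these samples. Alternatives in scaling, pseudocount, filter, covariates and libraries were run.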

Additional observations from a re-analysis of the deposited data

How the results depend on the processing

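No ribosomal protein gene passed in 137 of 137 counts under alternatives, and all 115 alternative medians stayed within 1 SD between libraries (0.49) of the value reported. That SD is larger than every reported median, so a changed sign also falls within it. Over alternatives the median changed sign in each comparison. It ran from -0.51 to 0.03 in HF_Sugar against NF, -0.34 to 0.25 in HF against NF and -0.35 to 0.14 in NF_Sugar against NF. In HF_Sugar against HF it ran from -0.49 to 0.09, and against NF_Sugar from -0.36 to 0.12. With a replicate block the medians were the same (-0.24 in HF_Sugar against NF), and 0 members passed, so the block changed no call of a member. Over all genes it gave 0 calls in HF_Sugar against HF, against 1 without it. Of 552 values for 24 named differences, 0 passed and 16 changed sign, the cause of which was not tested.

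Counts of members whose groups did not overlap moved most. In HF_Sugar against NF (2) they were 0 without scaling and at a mean of at least 5 RPKM, 1 with upper quartile scaling, 4 with no filter, 40 without the 4 libraries that stand apart, and 2 to 35 leaving out each library. In HF against NF (0) they were 8 without the 4 libraries and 0 to 6 leaving out each library. In NF_Sugar against NF (1) they were 10 and 1 to 9. In HF_Sugar against HF (2) they were 0 without scaling, 1 with median of ratios scaling and with scaling without ribosomal protein genes, 37 without the 4 libraries and 2 to 38 leaving out each library. In HF_Sugar against NF_Sugar (2) they were 0 without scaling, 1 under the other 3 scalings and both filters, 18 without the 4 libraries and 2 to 15 leaving out each library. Groups of fewer libraries overlap less by construction, over all genes as well. Without the 4 libraries, 21.2% of all genes lay lower and 20.01% higher in HF_Sugar against NF, beside 40.9% and 4.55% of members. In HF against NF these shares were 15.2% and 13.18%, beside 3.41% and 5.68%. In NF_Sugar against NF they were 16.2% and 15.19%, beside 10.2% and 1.14%. In HF_Sugar against HF they were 19.4% and 19.75%, beside 38.6% and 3.41%. In HF_Sugar against NF_Sugar they were 17.4% and 16.99%, beside 17.0% and 3.41%. Of 17662 genes, 2277 lay lower and 2406 higher where 35 members separated (without NF replicate 2). Where 38 members separated (without HF replicate 2), 2391 genes lay lower and 2147 higher. For the counts of 6, 9 and 15 (without NF replicate 3, NF_Sugar replicate 2 and NF_Sugar replicate 1), 2166, 1248 and 1693 genes lay lower. Those on the higher side were 1617, 1551 and 1738. The block and covariate fits give no count of groups that did not overlap.

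Leaving out each library, the differences that changed sign ran as follows on the log2 scale. In HF_Sugar against NF, Rpl13 ran from -0.083 to 0.59, Rpl35a from -0.14 to 0.58, Rpl37rt from -0.10 to 0.77 and Rps27rt from -0.026 to 0.74. Rps27rt ran from -0.11 to 0.66 in HF_Sugar against HF and from -0.14 to 0.62 in HF_Sugar against NF_Sugar. In HF against NF, Rpl7a ran from -0.013 to 0.60, Rplp1 from -0.11 to 0.63, Rplp2 from -0.70 to 0.017 and Rps20 from -0.73 to 0.15. In NF_Sugar against NF, Rplp1 ran from -0.19 to 0.54, Rps13 from -0.23 to 0.90 and Rps21 from -1.13 to 0.14, and without the 4 libraries that stand apart Rplp1 was -0.081.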
